A study of Mus musculus with 40 samples.

Results

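The circadian clock genes described here are 10 of the 40213 gene symbols in the count files: Dbp, Tef, Per1, Per2, Per3, Nr1d1, Nr1d2, Ciart, Bmal1 (named Arntl in older annotations) and Cry1. They were selected on these same data, for how they stood to each other across the groups, above all in the spinal cord of mice given T0070907, and for agreement between the tissues. What is said of that group and of that agreement is therefore a description without a test. The other comparisons use libraries that entered the same choice, so their member counts and p-values give no independent support. All 10 passed the filter on low counts in both tissues, where 16629 midbrain and 16682 spinal cord genes were tested.

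The mammalian clock is a feedback loop of transcription factors that runs in nearly every cell. BMAL1 and CLOCK switch on genes that carry E-box sequences, among them the Period and Cryptochrome genes, Dbp, the nuclear receptors Nr1d1 and Nr1d2 and Ciart, and the products of several of these genes then repress BMAL1 and CLOCK. NR1D1 and NR1D2 also repress Bmal1 through RORE sequences, so that Bmal1 RNA normally peaks when Nr1d1 and Dbp RNA are low, while Cry1 lags behind the other E-box genes. DBP and TEF, proteins of the PAR bZIP family, act on D-box sequences and pass the rhythm on to output genes. In brain and spinal cord, the level of each of these RNAs is known to change with the time of day.

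The study compared male C57BL/6N mice of 8 weeks, kept on a cycle with 12 h of light, in 5 groups with 4 replicates, and sequenced midbrain and spinal cord RNA, which gave 40 libraries. Con mice received saline in place of MPTP. MPTP-Veh mice received MPTP, a toxin that kills midbrain dopamine neurons, in 4 intraperitoneal injections of 20 mg/kg with 2 h between them. In both groups saline was later injected at the acupoint GB34. MPTP-SU mice received MPTP and, from 1 week later, 4 injections of the herbal extract SUEHP (SU-Eohyeol pharmacopuncture) at GB34, given 2 times a week. Mice of MPTP-SU+S and of MPTP-SU+T received MPTP, SUEHP and an antagonist of the cannabinoid receptor CB1 (3 mg/kg, spelled SR141714A in the sample labels and SR141716A in the study's methods) or the PPARγ inhibitor T0070907 (5 mg/kg). No source used here says that mice without an antagonist received its solvent, so drug and solvent cannot be told apart in those groups. The hour at which tissue was collected is not given in the sources used here, and neither is whether a replicate was 1 mouse. The p-values thus measure only the spread between these samples. Since these RNAs change with the time of day, a difference in treatment cannot be told apart from one in collection hour.

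Total counts were 11958200 to 16639823 per midbrain library and 14642808 to 16615378 per spinal cord library. Expression is given as CPM, each gene's counts scaled to the same total in every library by TMM-adjusted library sizes, which compares libraries but not genes, since CPM is not divided by gene length. Midbrain MPTP-Veh replicate 4 stood apart, with 1.35% of its counts on mitochondrially encoded genes against 9.92% to 17.5% in the other midbrain libraries, and a summed CPM of 32718 for 4 oligodendrocyte markers against 8663 to 10842 in the other MPTP-Veh libraries. Midbrain fold changes that use that group are given with and without it. Hoxc10, a gene of the posterior body axis, had 74.3 to 98.0 CPM in the spinal cord and at most 0.847 CPM in the midbrain, in that same MPTP-Veh library, and Th had 17.0 to 109.7 CPM in the midbrain and 2.29 to 3.85 CPM in the spinal cord. Markers of the hypothalamus, which holds the central clock of the body, summed over 6 genes to 1.58 to 3.50 CPM in the spinal cord, where Avp and Six6 had no count in any library, and to 2.39 to 436.8 CPM in the midbrain. The genes that the antagonists act through were both measured, with Pparg at 0.441 to 2.12 CPM and Cnr1 at 8.47 to 87.3 CPM over all libraries.

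The promoters show which of the clock's own sequences the members carry. RefSeq windows of 300 bases, from 250 before to 50 after a start site, were at hand for 9 of the 10 genes, 12 windows in all, on the build GRCm38.p6. CACGTG (E-box), TTATGTAA or TTATGCAA (D-box) and TAGGTCA or TGGGTCA (RORE) were searched on both strands. An E-box lay in the windows of 4 genes (Tef, Per1, Ciart and Cry1), a D-box in 2 (Per1 and Per3) and a RORE in 1 (Bmal1). Of all 27025 genes with windows of this length, 8.09% held the E-box, 1.98% a D-box and 7.35% a RORE in at least 1 window. The 4 windows below are the 250 bases before the start of those members with a match that best show the motifs, and Bmal1 is shown as 30 bases around its match. Capitals mark the motifs.

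Ciart, 3 E-boxes, chr3:95882229-95882478, minus strand: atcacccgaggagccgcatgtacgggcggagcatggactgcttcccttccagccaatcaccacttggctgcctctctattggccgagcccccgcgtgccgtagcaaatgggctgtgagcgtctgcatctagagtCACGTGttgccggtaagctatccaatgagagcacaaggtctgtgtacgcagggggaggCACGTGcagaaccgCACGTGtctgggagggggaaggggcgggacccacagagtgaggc

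Cry1, 1 E-box, chr10:85185055-85185304, minus strand: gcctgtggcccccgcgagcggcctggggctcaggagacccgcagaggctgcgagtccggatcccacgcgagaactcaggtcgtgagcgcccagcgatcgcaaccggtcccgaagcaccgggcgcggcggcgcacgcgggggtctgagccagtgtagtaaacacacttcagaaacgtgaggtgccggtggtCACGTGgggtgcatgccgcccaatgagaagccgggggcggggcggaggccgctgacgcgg

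Per1, 1 E-box and 1 D-box, chr11:69098699-69098948, plus strand: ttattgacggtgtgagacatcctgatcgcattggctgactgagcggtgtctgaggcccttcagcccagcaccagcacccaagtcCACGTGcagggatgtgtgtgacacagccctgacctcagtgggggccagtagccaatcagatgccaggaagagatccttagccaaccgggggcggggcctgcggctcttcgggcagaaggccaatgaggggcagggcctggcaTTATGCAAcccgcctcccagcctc

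Per3, 2 D-boxes, chr4:151044666-151044915, minus strand: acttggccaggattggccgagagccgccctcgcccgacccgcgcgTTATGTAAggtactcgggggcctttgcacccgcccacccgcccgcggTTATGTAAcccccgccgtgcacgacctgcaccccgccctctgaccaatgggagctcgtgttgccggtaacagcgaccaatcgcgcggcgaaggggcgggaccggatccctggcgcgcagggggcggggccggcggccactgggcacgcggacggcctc

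Bmal1 (Arntl), 1 RORE, chr7:113207529-113207558, plus strand: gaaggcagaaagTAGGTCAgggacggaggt

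The E-boxes of Ciart began 116, 58 and 44 bases before the start site, that of Cry1 60 bases before it and that of Per1 166 bases before it. The RORE of Bmal1 began 30 bases after the start. The windows of Dbp, Nr1d1 and Nr1d2 held none of these letters, which says nothing of sites elsewhere in those genes. These matches are descriptions, and binding was not measured.

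In the spinal cord, 6 of the 10 genes (Dbp, Tef, Per3, Nr1d1, Nr1d2 and Ciart) had their 2 highest means in the antagonist groups, and Bmal1 had its 2 lowest means there. Dbp, the transcription factor often used as a readout of clock phase, had 27.6, 27.9, 26.7 and 30.4 CPM in MPTP-SU and 42.0, 38.9, 43.3 and 46.3 CPM in MPTP-SU+T. In MPTP-SU+S it had 41.9, 37.4, 41.0 and 36.7 CPM. Every library of both antagonist groups was above every MPTP-SU library. In Con it had 30.4, 31.7, 38.0 and 34.2 CPM and in MPTP-Veh 34.8, 30.2, 24.2 and 26.3 CPM, so that only Con replicate 3, at 38.0 CPM, reached into the range of the antagonist groups. From lowest to highest, the means ran from MPTP-SU (28.1) through MPTP-Veh (28.9) and Con (33.5) to MPTP-SU+S (39.3) and MPTP-SU+T (42.6), and each group overlapped its neighbour in this order.

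**Figure D1:**
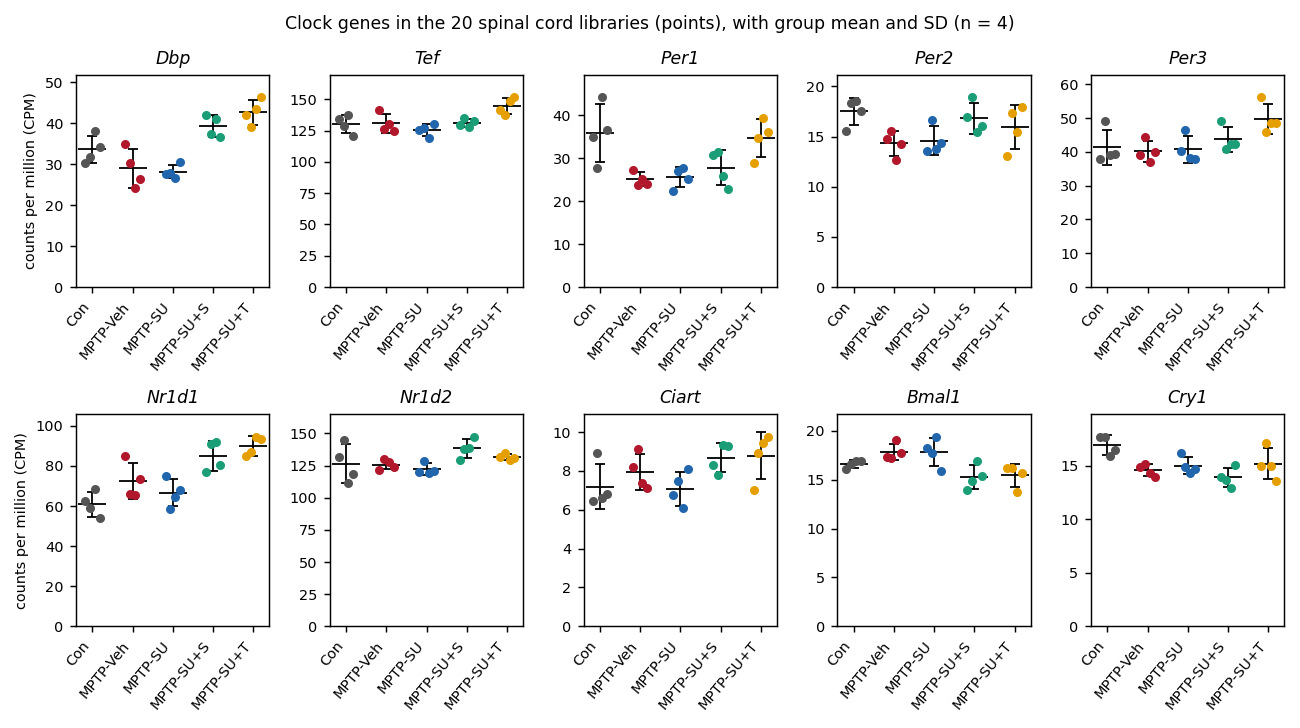
CPM of the 10 clock genes (y axes, from 0) in the 5 groups of spinal cord libraries (x axes); each point is 1 library, and black marks are the mean and SD of 4 libraries. Dbp, Nr1d1 and Tef reach their highest means in MPTP-SU+T, at 42.6, 89.9 and 144.8 CPM, and Bmal1 its lowest in MPTP-SU+S, at 15.3 CPM.

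Tef, the other PAR bZIP factor, moved less. It had 126, 127, 119 and 130 CPM in MPTP-SU and 141, 138, 149 and 152 CPM in MPTP-SU+T, again with no overlap. The MPTP-SU+S libraries had 128 to 135 CPM, all below the MPTP-SU+T libraries, and those were the only neighbours in the order of Tef means that did not overlap. Con had 120 to 137 CPM and MPTP-Veh 125 to 142 CPM.

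Of the Period genes, whose proteins repress BMAL1 and CLOCK, Per1 separated the groups most in the spinal cord. Con had 34.9, 27.8, 44.2 and 36.5 CPM, and MPTP-SU+T 28.9, 34.6, 39.3 and 36.1 CPM. The other groups were lower. MPTP-Veh libraries held 27.4, 23.8, 25.3 and 23.9 CPM, those of MPTP-SU held 22.5, 27.0, 27.8 and 25.1 CPM and MPTP-SU+S had 30.8, 31.5, 26.0 and 22.8 CPM. Con and MPTP-SU+T thus shared a range that no MPTP-Veh or MPTP-SU library reached. Per2 was also highest in Con, with 15.5, 18.4, 18.5 and 17.5 CPM against 14.8, 15.6, 12.7 and 14.3 CPM in MPTP-Veh, but the MPTP-SU+T libraries covered nearly the whole range, from 13.0 to 18.0 CPM. Per3, which carries the paired D-boxes shown above, had 38.0 to 46.4 CPM in MPTP-SU and 45.8 to 56.2 CPM in MPTP-SU+T, and only MPTP-SU replicate 2, at 46.4 CPM, overlapped that group.

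Nr1d1, which encodes the repressor REV-ERBα, followed Dbp in the antagonist groups but not in Con. It had 74.9, 58.7, 64.5 and 68.1 CPM in MPTP-SU, 77.1, 90.9, 91.8 and 80.2 CPM in MPTP-SU+S and 84.8, 86.8, 94.6 and 93.5 CPM in MPTP-SU+T. Con was the lowest group, with 62.6, 58.9, 68.4 and 53.8 CPM, and MPTP-Veh lay between, from 65.4 to 85.1 CPM. Nr1d2, which encodes the related REV-ERBβ, had a narrow range of 119 to 129 CPM in MPTP-SU, 129 to 148 CPM in MPTP-SU+S and 129 to 135 CPM in MPTP-SU+T. Ciart, a repressor of BMAL1 and CLOCK with 3 E-boxes in its window, had 6.07 to 8.07 CPM in MPTP-SU, 7.79 to 9.35 CPM in MPTP-SU+S and 7.01 to 9.76 CPM in MPTP-SU+T, so that the groups overlapped.

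Bmal1, the activator of the loop, ran the other way in the spinal cord. It had 16.1, 16.6, 16.9 and 16.9 CPM in Con, 17.3, 17.3, 19.1 and 17.7 CPM in MPTP-Veh and 18.3, 17.8, 19.4 and 15.9 CPM in MPTP-SU. In MPTP-SU+S it had 14.0, 14.9, 16.9 and 15.4 CPM, and in MPTP-SU+T 16.2, 16.2, 13.8 and 15.7 CPM. MPTP-SU replicate 4 was the lowest of its group for Bmal1 and the highest for Dbp. Con lay wholly below MPTP-Veh, the only neighbours without overlap in the order of Bmal1 means. Cry1, a repressor of the loop that peaks later than the other E-box genes, was highest in Con (15.9 to 17.7 CPM) and had 13.0 to 17.2 CPM over the other groups, with overlapping ranges in MPTP-SU (14.3 to 16.2 CPM) and MPTP-SU+T (13.6 to 17.2 CPM).

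In the fitted comparison of MPTP-SU+T with MPTP-SU in the spinal cord, by which the members were chosen, Dbp had a log2 fold change of 0.60 (SE 0.09), or 1.51-fold. Per1 was at 0.44 (SE 0.12), Nr1d1 at 0.43 (SE 0.09), Ciart at 0.32 (SE 0.13), Per3 at 0.29 (SE 0.09), Tef at 0.21 (SE 0.05), Per2 at 0.13 (SE 0.10) and Nr1d2 at 0.11 (SE 0.06). Bmal1 was at −0.21 (SE 0.07) and Cry1 at 0.02 (SE 0.07). The 8 genes other than Bmal1 and Cry1 had a median of 0.30, beside 0.01 for all genes tested. Dbp was the 1 member called at a Benjamini-Hochberg adjusted p below 0.05 and a fold above 1.5, in a comparison where 0.024% of all genes were called. In 5 of the 10 members every MPTP-SU+T library was above every MPTP-SU library, and in 0 every library was below, beside 3.94% and 4.1% of all genes. Because this comparison chose the members, nothing is read from these counts. The other 3 genes called in it were Scara3 at 0.84, the mitochondrial gene ATP8 at −0.61 and Calca, which encodes the pain-related peptide CGRP, at −0.70. Mitochondrially encoded genes took 11.0% to 13.6% of the counts in the MPTP-SU+T libraries, 15.1% to 16.5% in MPTP-SU, 14.8% to 18.0% in MPTP-SU+S and 12.4% to 14.2% in Con. The part of that difference in the clock genes' values was not tested. The summed CPM of each marker list for neurons, glia, vessels and neighbouring tissues overlapped between both groups. The single gene Hoxc10 did not overlap, at 74.3 to 80.9 CPM in MPTP-SU+T and 85.5 to 92.5 CPM in MPTP-SU. Its part was not tested either.

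**Figure D2:**
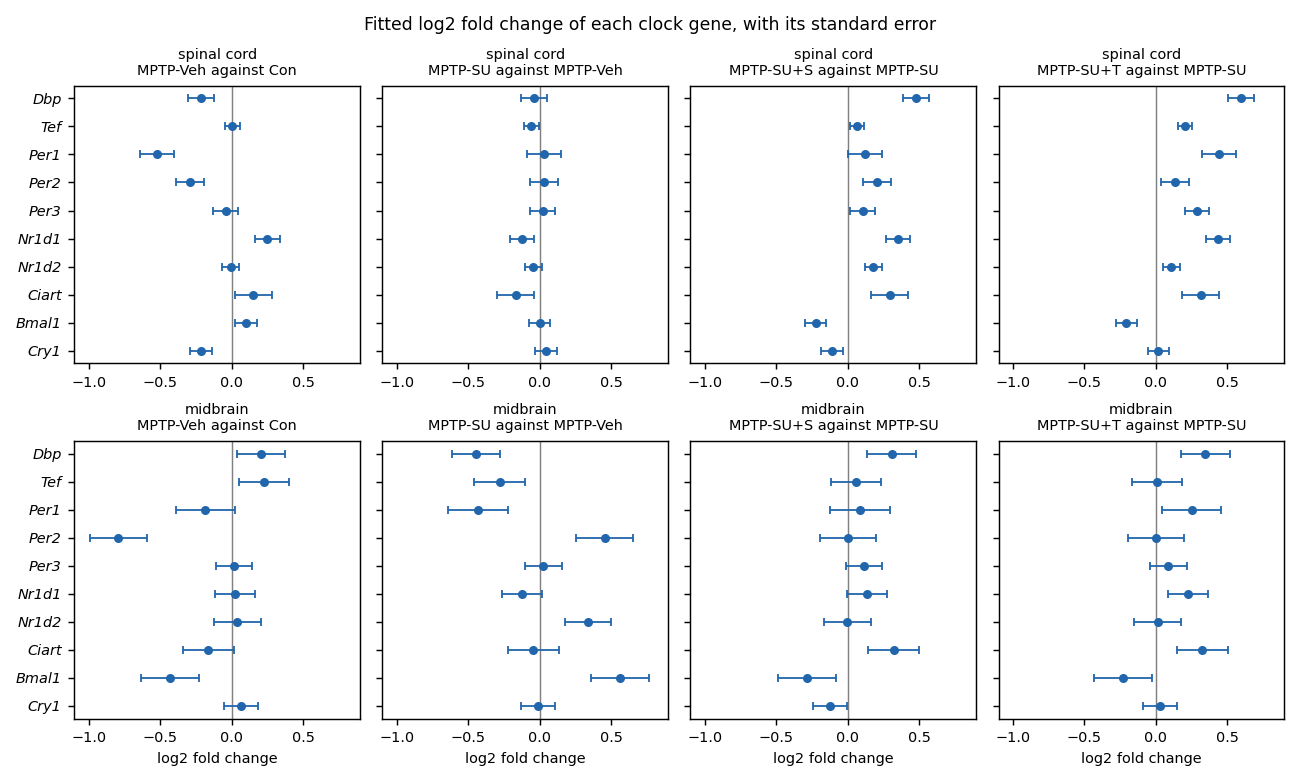
Fitted log2 fold change of each clock gene (x axes, first group over second) in 4 comparisons (columns) in the spinal cord (top row) and midbrain (bottom row), with bars for the standard error. In the right column of the top row, Dbp lies at 0.60 and Bmal1 at −0.21, and in the second column of that row every gene lies between −0.17 and 0.04.

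The comparison of MPTP-SU+S with MPTP-SU uses the same MPTP-SU libraries, so that the values of both antagonist groups are not independent and are only set side by side. With the CB1 antagonist, Dbp in the spinal cord had a log2 fold change of 0.48 (SE 0.09) and an edgeR adjusted p of 0.359. Nr1d1 was at 0.35, Ciart at 0.29, Per2 at 0.20, Nr1d2 at 0.18 and Bmal1 at −0.23, with adjusted p-values of 0.770 to 0.899, while Per1 was at 0.12 against the 0.44 seen with T0070907. The difference between the 2 antagonists was not tested. Over its alternatives the adjusted p of Dbp ranged from 0.0036 (DESeq2) to 0.998, at log2 fold changes of 0.45 to 0.52, which are below 1.5-fold. None of the 10 members was called by edgeR, where 0% of all genes were, nor by DESeq2 or limma-voom. An unadjusted p below 0.05 was held in edgeR by 6 of the 10 and by 916 of all 16682 genes. Dbp, Nr1d1 and Nr1d2 had every MPTP-SU+S library above every MPTP-SU library, which held for 1.95% of all genes, and no member had every library below, which held for 2.24%. The choice of the members took in all groups, so nothing is read from these counts. The 3 endothelial markers summed to 145 to 158 CPM in MPTP-SU+S and 164 to 180 CPM in MPTP-SU, and the 4 choroid plexus markers to 7.38 to 10.3 CPM and 5.49 to 7.27 CPM. The part of these differences was not tested.

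No clock gene passed the test between MPTP-SU and MPTP-Veh in the spinal cord. The log2 fold changes lay between −0.17 (Ciart) and 0.04 (Cry1), and the mean of Bmal1 was 17.8 CPM in both groups. No member was called and in none did the groups fail to overlap, in either direction, beside 0% of all genes called, 1.41% wholly higher and 1.86% wholly lower. The smallest adjusted p of a member in edgeR's quasi-likelihood test was 0.999, at an unadjusted p below 0.05 the test counted 636 genes and no member, and DESeq2 and limma-voom also called 0 members.

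MPTP alone went with lower Per1 in the spinal cord, by values that missed the threshold. The log2 fold change of MPTP-Veh over Con was −0.52 (SE 0.12), a difference of 30.3% between the groups, with an edgeR adjusted p of 0.159, and all 4 MPTP-Veh libraries were below all 4 Con libraries. Without Con replicate 2, the lowest Con library at 27.8 CPM, it was −0.62 with an edgeR adjusted p of 0.0102 and was called. The other 15 of its 16 alternatives did not call it. Per2 was at −0.29, Dbp at −0.22, Cry1 at −0.21 and Nr1d1 at 0.25, all with adjusted p-values of 0.249 to 0.323. The groups did not overlap for Per1 and Cry1, both lower in MPTP-Veh, and for Bmal1, which was higher at 0.10. Over all genes 2.26% were wholly higher and 2.47% wholly lower, and 0% were called, with 2137 at an unadjusted p below 0.05. Oligodendrocyte markers, 4 genes with a summed CPM of 17319 to 17651 in MPTP-Veh and 15104 to 16863 in Con, and microglial markers, 5 genes with 88.3 to 97.0 CPM against 72.9 to 85.7 CPM, also differed without overlap. So did the mitochondrial share, at 14.3% to 16.4% in MPTP-Veh and 12.4% to 14.2% in Con. Hoxc10 was also apart, at 77.6 to 81.5 CPM in MPTP-Veh and 89.8 to 98.0 CPM in Con. The part of all of these in the clock genes' values was not tested. In bulk tissue, fewer cells of a type and less RNA per cell cannot be told apart.

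For 8 of the 10 genes, all but Per3 and Nr1d1, the median SD of log2 CPM within a group was larger in the midbrain than in the spinal cord. Dbp had 57.7, 58.7, 48.8 and 44.3 CPM in Con, 36.7, 47.3, 48.9 and 44.8 CPM in MPTP-SU, 50.8, 56.0, 52.7 and 60.4 CPM in MPTP-SU+S and 49.9, 53.8, 58.3 and 64.0 CPM in MPTP-SU+T. MPTP-Veh had 49.6, 52.2 and 48.7 CPM in 3 replicates and 91.7 CPM in replicate 4. Tef in that library was 318 CPM against 152 to 170 CPM in its group, and 148 to 187 CPM in all other groups. The antagonist groups were again wholly above MPTP-SU for Dbp. The lowest MPTP-SU+T library, at 49.9 CPM, lay just over the highest MPTP-SU library, at 48.9 CPM.

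**Figure D3:**
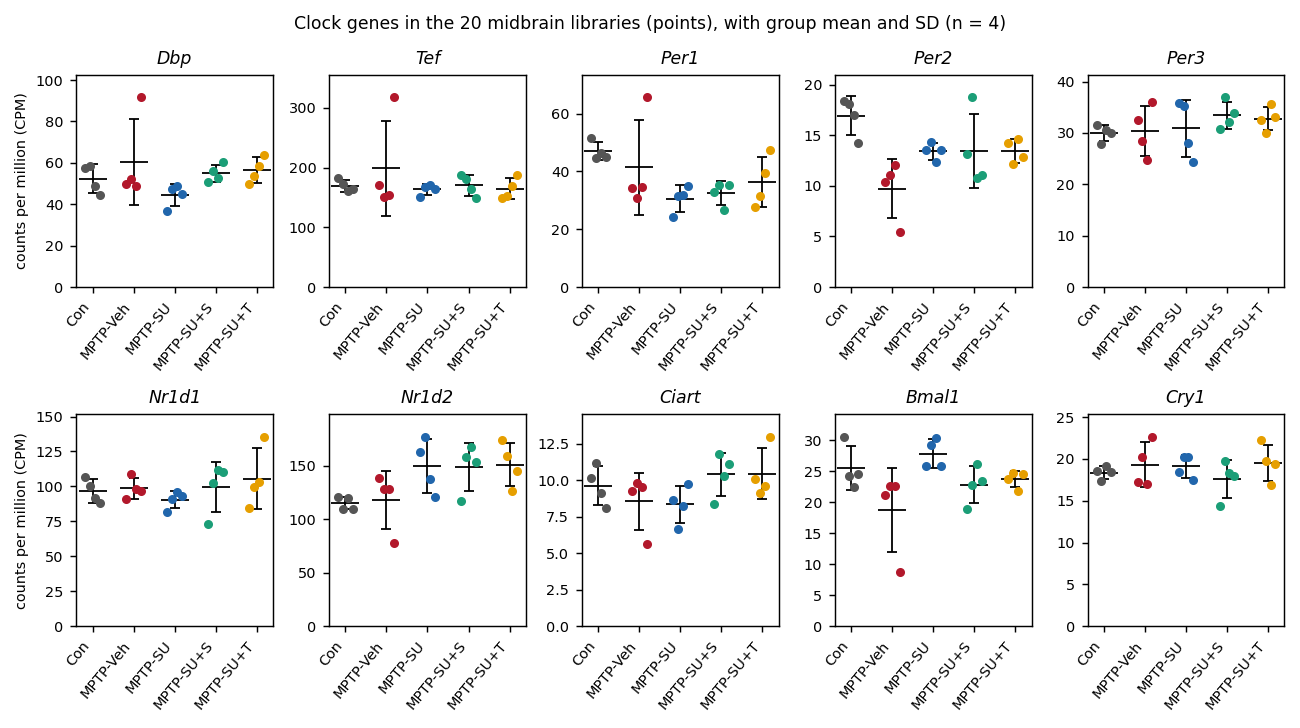
CPM of the 10 clock genes (y axes, from 0) in the 5 groups of midbrain libraries (x axes); each point is 1 library, and black marks are the mean and SD of 4 libraries. MPTP-Veh replicate 4 lies far above its group for Dbp (91.7 CPM), Tef (318 CPM) and Per1 (65.7 CPM) and far below it for Bmal1 (8.75 CPM).

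The Period genes of the midbrain were highest in Con, apart from Per3. Per1 had 51.4, 44.6, 46.5 and 45.2 CPM in Con and 34.2, 30.9 and 34.6 CPM in MPTP-Veh replicates 1 to 3, but 65.7 CPM in replicate 4. It had 24.1 to 35.0 CPM in MPTP-SU, 26.6 to 35.5 CPM in MPTP-SU+S and 27.6 to 47.3 CPM in MPTP-SU+T. Per2 had 18.4, 18.1, 17.0 and 14.3 CPM in Con and 10.3, 11.1, 12.0 and 5.46 CPM in MPTP-Veh. At the lower end of the order of means, every MPTP-Veh library was below every MPTP-SU library, which had 13.5, 14.3, 12.3 and 13.5 CPM. MPTP-SU+S was spread widely around MPTP-SU, from 10.8 to 18.7 CPM, and so reached into the MPTP-Veh range. MPTP-SU+T lay between 12.1 and 14.6 CPM. Per3 had 24.4 to 36.9 CPM over all midbrain libraries and no group apart from the rest.

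Among the repressors and the activator in the midbrain, Nr1d1 had 73.4 to 136 CPM and its highest value in MPTP-SU+T replicate 4, the library that was also highest of its group for Dbp, Per1, Tef and Ciart. Ciart had 6.69 to 9.76 CPM in MPTP-SU and 9.10 to 13.0 CPM in MPTP-SU+T. Nr1d2 had its lowest mean in Con, at 109.7 to 120 CPM, its lowest library in MPTP-Veh replicate 4, at 77.7 CPM, and its highest in MPTP-SU replicate 2, at 177 CPM. Bmal1 had 30.6, 24.3, 22.4 and 24.7 CPM in Con, 21.2, 22.6, 22.7 and 8.75 CPM in MPTP-Veh and 25.9, 29.3, 30.4 and 25.9 CPM in MPTP-SU. The MPTP-SU+T libraries, at 23.8, 24.8, 21.9 and 24.6 CPM, were all below those of MPTP-SU, while MPTP-SU+S ranged from 19.0 to 26.2 CPM. Cry1 means stayed between 17.6 and 19.6 CPM in the 5 groups.

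For MPTP-SU+T over MPTP-SU in the midbrain, a contrast that also chose the members, the log2 fold changes were 0.35 (SE 0.17) for Dbp, 0.33 (SE 0.18) for Ciart, 0.25 (SE 0.21) for Per1, 0.22 (SE 0.14) for Nr1d1 and −0.23 (SE 0.20) for Bmal1. Tef, Per2, Per3, Nr1d2 and Cry1 lay between 0.00 and 0.09. The median of the 8 genes other than Bmal1 and Cry1 was 0.15, beside 0.01 for all genes. None of the 10 was called by edgeR, nor was any other gene (0%), and the adjusted p was 1 for every member, while 283 genes and no member had an unadjusted p below 0.05. Dbp was wholly higher and Bmal1 wholly lower, in a comparison where 1% of all genes were the one and 0.956% the other, and nothing is read from these counts.

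For MPTP-SU+S over MPTP-SU in the midbrain, which shares its controls with the preceding comparison, Ciart was at 0.32, Dbp at 0.31 and Bmal1 at −0.29, and the adjusted p was 1 for each in edgeR. None was called (0% of all genes, with 274 at an unadjusted p below 0.05, of which no member). Dbp was the 1 member with all MPTP-SU+S libraries above all MPTP-SU libraries, against 1.14% of all genes, and none was wholly lower, against 1.01%. Nothing is read from these counts either.

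MPTP-Veh against Con in the midbrain showed its largest member difference in Per2, with a log2 fold change of −0.79 (SE 0.20), a change of −42.2%. The edgeR adjusted p was 0.130 and all 4 libraries lay below all Con libraries, which held for 6.03% of all genes. DESeq2 called it (−0.78, adjusted p = 0.0135), and so did edgeR without MPTP-Veh replicate 3 (−0.91, adjusted p = 0.0432). Over its alternatives the adjusted p ranged from 0.0135 to 0.492, and without the library that stood apart the value was −0.60 with an adjusted p of 0.128. No member was called by edgeR, beside 0.018% of all genes, and none was wholly higher, beside 6.37%. Bmal1 was at −0.43 (adjusted p = 0.202) with that library and at −0.20 (adjusted p = 0.485) without it. Dbp and Tef were at 0.21 and 0.23 with it and at −0.06 and −0.10 without it, and Per1 went from −0.18 to −0.50. At an unadjusted p below 0.05 edgeR counted 3945 genes. The 4 astrocyte markers summed to 1913 to 2151 CPM in Con, above all MPTP-Veh libraries, and their part was not tested.

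MPTP-SU against MPTP-Veh in the midbrain was the comparison with the most calls over all genes, 13.5%. It held 0 calls among the 10 members, a count too near that share to be read as a result about them. Bmal1 came closest, at a log2 fold change of 0.56 (SE 0.20) and an edgeR adjusted p of 0.0550, with all MPTP-SU libraries above all MPTP-Veh libraries. limma-voom called it (0.63, adjusted p = 0.0478), as did edgeR without MPTP-Veh replicate 2 or 3 (0.66 and 0.67, adjusted p = 0.0362 and 0.0334), and without MPTP-Veh replicate 4 it was 0.33 (adjusted p = 0.0511). Per2 was wholly higher too, at 0.46 (adjusted p = 0.0991) and at 0.27 (adjusted p = 0.275) without that library, so that 2 members were, beside 10.6% of all genes, and 0 were wholly lower, beside 11.3%. Dbp was at −0.44 (adjusted p = 0.0669), Per1 at −0.43 (0.129) and Tef at −0.28 (0.240). Those 3 values rested on MPTP-Veh replicate 4: without it Dbp was at −0.18, Per1 at −0.12 and Tef at 0.04. Over all genes 6617 had an unadjusted p below 0.05, and DESeq2 called 0 members. Astrocyte markers (4 genes) summed to 1820 to 2233 CPM in MPTP-SU and 1651 to 1790 CPM in MPTP-Veh, endothelial markers (3 genes) to 121 to 133 CPM and 137 to 289 CPM, and pituitary markers (3 genes) to 0.888 to 2.57 CPM and 3.95 to 778 CPM. The part of these differences in the clock genes' values was not tested.

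Genes of the same pathway outside the 10 passed the threshold in that comparison. Of 15 further core clock genes, all tested, 4 were called higher with SUEHP in the midbrain and none was called lower, beside 4.35% of all genes called higher. They were Rora (1.34, adjusted p = 0.0327) and Rorb (0.95, adjusted p = 0.0219), which encode nuclear receptors that bind the same RORE sequences as NR1D1, and Hlf (1.00, adjusted p = 0.0228), a PAR bZIP factor like DBP, and Fbxl21 (0.75, adjusted p = 0.0200), which encodes an F-box protein that controls cryptochrome stability. Log2 fold changes over the list ran from −0.44 to 1.34, with a median of 0.21, beside 0.00 for all genes. Without MPTP-Veh replicate 4, Hlf was at 0.83, Rorb at 0.75 and Fbxl21 at 0.61, and these 3 were still called. None of the 4 was called with the 8 libraries of the comparison alone (adjusted p = 0.223 each) or without MPTP-SU replicate 2, 1 was without MPTP-SU replicate 3, and Rora was not without MPTP-Veh replicate 4 (1.09, adjusted p = 0.0701) or MPTP-SU replicate 4 (1.30, adjusted p = 0.0560). In the other 7 comparisons edgeR called 0 of the 15, with 0 to 3 of them at an unadjusted p below 0.05.

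Lists of genes that answer to hormones, heat or activity were read beside the clock genes because several clock genes, Per1 above all, also respond to such signals. Of 15 glucocorticoid-responsive genes, 5 fell in MPTP-SU against MPTP-Veh in the midbrain, beside 9.1% of all genes, the 3 with the smallest p being Mt1 (−0.86, adjusted p = 0.00683), Mt2 (−0.68, adjusted p = 0.0126) and Zbtb16 (−0.91, adjusted p = 0.0265). Mt1 and Mt2 encode metallothioneins, which also respond to metals. Of 10 temperature-responsive genes 2 fell, the cold-inducible Cirbp (−1.43, adjusted p = 0.0190) and the heat-shock gene Hsp90aa1 (−0.68, adjusted p = 0.0293). Without MPTP-Veh replicate 4 edgeR called 0 genes of both lists, beside 2.09% of all genes called lower, with Mt1 at −0.57, Mt2 at −0.47, Zbtb16 at −0.52, Cirbp at −0.48 and Hsp90aa1 at −0.28, of which all but Zbtb16 (adjusted p = 0.0913) kept an adjusted p below 0.05 and lost the fold above 1.5. Cirbp had a mean of 99.1 CPM with an SD of 95.9 (n = 4) in MPTP-Veh. Of 11 clock-output genes of many tissues, 10 immediate early genes and the 14 tested of 15 PPAR target genes, 0 were called by edgeR in that comparison, with 6, 2 and 5 at an unadjusted p below 0.05, as were 39.8% of all genes. In the other 7 comparisons none of these 5 lists had a call, with 0 to 6 genes of a list at an unadjusted p below 0.05. For MPTP-Veh over Con in the spinal cord, all 10 temperature-responsive genes had log2 fold changes between −0.60 and −0.06. Of these, 5 had an unadjusted edgeR p below 0.05, as did 2137 of all 16682 genes. Their summed CPM was 4984 to 5168 in MPTP-Veh and 5317 to 5609 in Con. The part of this difference in the clock genes' values was not tested. For MPTP-SU+T over MPTP-SU in the spinal cord, the 15 PPAR targets had a median log2 fold change of −0.03 and 1 gene at an unadjusted p below 0.05, and the 15 glucocorticoid-responsive genes a median of −0.004 and also 1.

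The relation of Dbp to Bmal1 within each library sets the output gene against the activator, which normally run in opposite phase. In the spinal cord, log2 Dbp minus log2 Bmal1 was 0.91, 0.93, 1.16 and 1.01 in Con, 1.00, 0.80, 0.34 and 0.57 in MPTP-Veh and 0.59, 0.64, 0.46 and 0.93 in MPTP-SU. It was 1.58, 1.32, 1.27 and 1.25 in MPTP-SU+S and 1.36, 1.25, 1.65 and 1.55 in MPTP-SU+T. All 8 libraries with an antagonist were above the 12 without one. Such relations across the groups were part of how the members were chosen, so nothing is read from this separation. In the midbrain the difference was 0.84 to 1.27 in Con, 0.50, 0.69, 0.68 and 0.79 in MPTP-SU, 1.00 to 1.41 in MPTP-SU+S and 1.06 to 1.41 in MPTP-SU+T, and 1.10 to 1.22 in 3 MPTP-Veh libraries with 3.37 in replicate 4. There MPTP-SU was below every other group, Con and MPTP-Veh included, while in the spinal cord MPTP-SU and MPTP-Veh shared the lowest range.

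**Figure D4:**
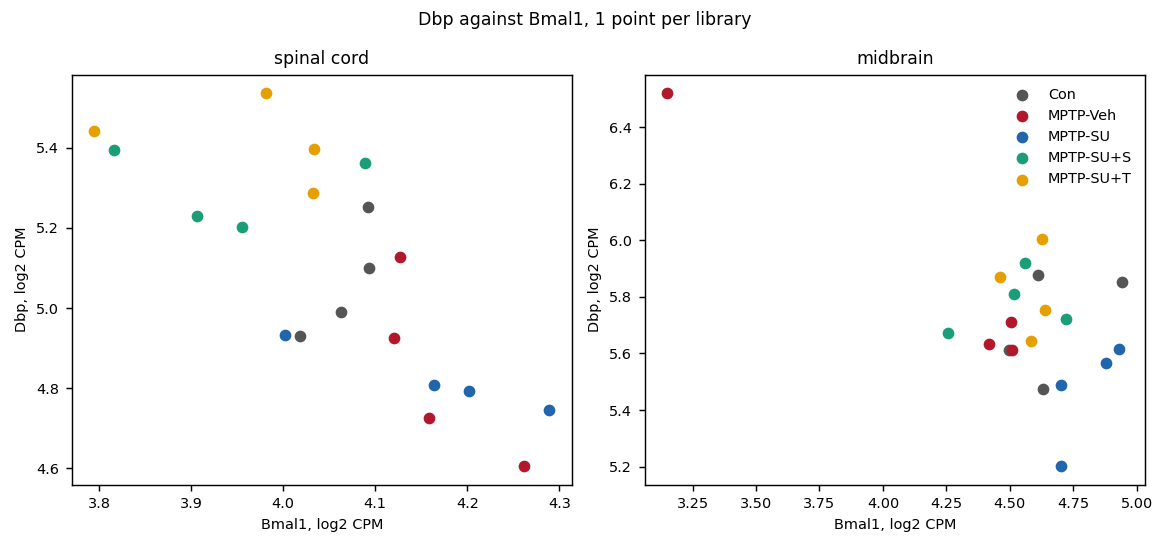
Dbp (y axes) against Bmal1 (x axes), both as log2 CPM, with 1 point per library coloured by group, in the spinal cord (left) and midbrain (right). In the spinal cord the antagonist groups lie at the upper left and MPTP-SU at the lower right, where Dbp minus Bmal1 is 0.46 to 0.93; in the midbrain the point at the far left is MPTP-Veh replicate 4, with a difference of 3.37.

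Across the 20 spinal cord libraries, Pearson's r between Dbp and Bmal1 was −0.76 (Spearman's rho −0.76), and −0.71 without the 2 libraries farthest from the median of Bmal1. With group means removed, r was −0.33. Dbp correlated with Nr1d1 (r = 0.68, rho = 0.71) and Tef (r = 0.68, rho = 0.70), and Per1 with Per2 (r = 0.57, rho = 0.56). With group means removed, these r were 0.43, 0.46 and 0.39. Nr1d2 did not follow them, with an r of 0.28 with Dbp and −0.25 with Per1 as measured. Those values fell to −0.52 and −0.71 with group means removed. In the midbrain, r between Dbp and Bmal1 was −0.68, but rho was −0.28, and without MPTP-Veh replicate 4 r was −0.13. Per1 and Dbp still ran together there without that library, with r = 0.50 as measured and 0.74 with group means removed. Nr1d2, also without that library, had r = −0.67 with Per1 and 0.25 with Bmal1 as measured. These were −0.56 and 0.61 with group means removed. These values describe genes measured in the same libraries, which share depth and composition, and carry no test.

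**Figure D5:**
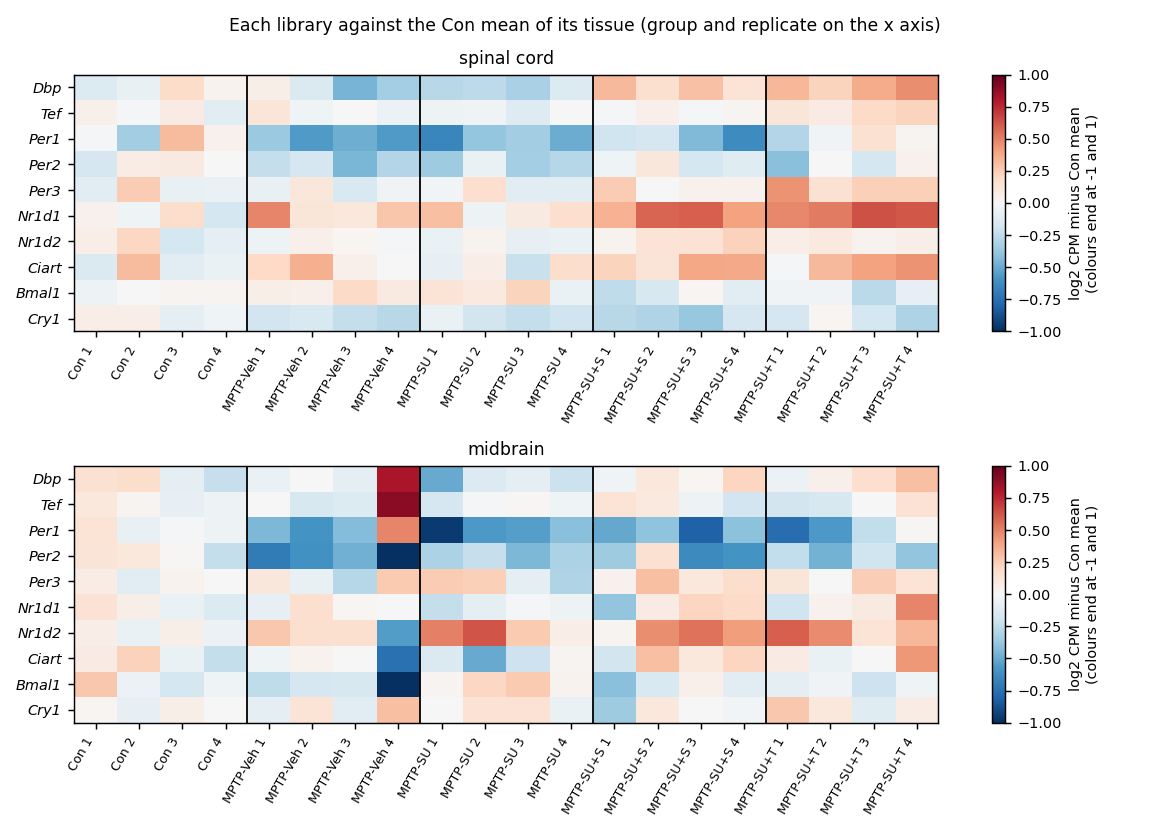
log2 CPM of each clock gene (rows) minus the Con mean of its tissue in each library (columns, by group and replicate), in the spinal cord (top) and midbrain (bottom), with red for higher and blue for lower and colours ending at −1 and 1. Per1 is below the Con mean in most MPTP-Veh and MPTP-SU libraries of both tissues, Dbp and Nr1d1 are above it in the 8 antagonist libraries of the spinal cord, and midbrain MPTP-Veh replicate 4 differs from its group in most rows.

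Agreement between the tissues was weak at the level of single replicates. Over 20 pairs of midbrain and spinal cord libraries with the same group and number, r of log2 CPM had a median of 0.283 over the 10 genes, from −0.096 (Tef) to 0.485 (Ciart), and was above 0 for 8. Without MPTP-Veh replicate 4 of the midbrain the median was 0.386 and all 10 were above 0, with Per1 at 0.666, Dbp at 0.511, Ciart at 0.497 and Bmal1 at 0.486. With group means removed over all 20 pairs, the median was 0.129, with 7 of 10 above 0, and Dbp was at −0.29, or −0.15 without MPTP-Veh replicate 4. The labels do not say that the same number marks the same mouse, and over genes outside the 10 a library's deviations from its group correlated best with its own number in the other tissue in 12 of 20 cases (r from −0.194 to 0.339). These cases were uneven over the groups, at 0 of 4 in Con, 1 of 4 in MPTP-Veh and 3 of 4 in MPTP-SU. Both MPTP-SU+S and MPTP-SU+T had 4 of 4. By group means, Per2 was highest in Con and lowest in MPTP-Veh in both tissues, Per1 was highest in Con in both, and Dbp, Tef and Ciart were lowest in MPTP-SU in both. For Tef in the midbrain this rested on MPTP-Veh replicate 4. Without that library, Tef had a log2 fold change of 0.04 for MPTP-SU over MPTP-Veh.

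The genes whose pattern was most like that of the clock genes were named by correlation with the mean standardized level of the 8 genes other than Bmal1 and Cry1, over 20 libraries of each tissue, taking the lower r of both tissues among 16063 genes. Bhlhe40, which encodes the E-box repressor DEC1 of the clock, came first with r = 0.589 across midbrain libraries and 0.644 across those of the spinal cord. Pdgfb (0.503 and 0.550), Trak1 (0.627 and 0.493), D030028A08Rik (0.491 and 0.515), Arhgef5 (0.479 and 0.556) and 2810047C21Rik1 (0.473 and 0.476) followed. The 6 most opposed were Xlr3b, B230369F24Rik, Gjc3, Fgf9, Gm52889 and Tll2, from −0.466 to −0.614. With group means removed, 1 of the first 6, Trak1, was still among the 6 most alike. Bmal1 itself had r = −0.768 with this mean in the spinal cord and −0.071 in the midbrain, and Cry1 had −0.102 and 0.225. Likeness over 20 libraries is a description, and nothing is said of shared control.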

How the data were processed

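Poly(A) RNA from mouse midbrain and spinal cord was made into CORALL V2 libraries and sequenced. The authors deposited whole-number estimated counts for each gene symbol; the submitters' processing notes name fastp, STAR, Salmon and GATK and the build GRCm39, with no versions. The sample labels and the study's methods name different RNA extraction kits. The members, the gene lists and the alternatives were chosen with earlier results of these data known. Genes were named by a rule: all members, at most 3 genes past the threshold for each list, direction and comparison, the targets Pparg and Cnr1, the check gene Th and the 6 genes most and least like the members; Hoxc10 and the marker genes at 0 were named after their values were seen, as were the genes called beside Dbp, and 4 called core clock genes are all given. Counts were filtered by filterByExpr, scaled by TMM and tested with edgeR 4.0.16 in R 4.3.3 (quasi-likelihood F test, 1 model per tissue over 20 libraries). A gene was called at a Benjamini-Hochberg adjusted p below 0.05 over all tested genes and a fold above 1.5. CPM and log2 CPM (prior count 2) were computed from the deposited counts. The fits were tested on simulated data. DESeq2 1.42.0, limma-voom (limma 3.58.1), other scalings and filters, the libraries of a comparison alone, a replicate block and the leaving out of single libraries were the alternatives. No 2 libraries held identical counts. Promoter sequences are from RefSeq on GRCm38.p6, another build than that of the counts, and give no coordinates for them.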

Additional observations from a re-analysis of the deposited data

Results flagged for a closer look

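In 9 of 100 groups of 4 libraries (10 genes, 5 groups and 2 tissues), a single library lay far from the other 3 by Dixon's test, which chance alone does in about 1 of 20 groups. Of these, 6 were midbrain MPTP-Veh replicate 4. It was high for Dbp, at 91.7 CPM against 48.7 to 52.2 CPM in the other replicates, for Tef, at 318 CPM against 152 to 170 CPM, and for Per1, at 65.7 CPM against 30.9 to 34.6 CPM. It was low for Nr1d2, at 77.7 CPM against 128 to 138 CPM, for Ciart, at 5.65 CPM against 9.26 to 9.81 CPM, and for Bmal1, at 8.75 CPM against 21.2 to 22.7 CPM. The same library had the low mitochondrial share and the high oligodendrocyte markers given above, and their part in its clock gene values was not tested. In the spinal cord, Con replicate 2 was high for Per3, at 49.0 CPM against 38.0 to 39.4 CPM, and for Ciart, at 8.90 CPM against 6.44 to 6.79 CPM. MPTP-SU replicate 2 of the spinal cord was high for Nr1d2, at 129 CPM against 119 to 121 CPM.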

How the results depend on the processing

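Without MPTP-Veh replicate 4 of the midbrain, values that had not passed the test changed direction, Dbp from 0.21 to −0.062 and Tef from 0.23 to −0.096 for MPTP-Veh over Con and Tef from −0.28 to 0.042 for MPTP-SU over MPTP-Veh. With other single libraries left out, these reached 0.29, 0.33 and −0.38. The other 83 changes of sign, over 1444 alternatives for single genes, were of values smaller than their standard error. No called value changed sign. The count of called members was 0 in both tissues for MPTP-SU+S over MPTP-SU, in the spinal cord for MPTP-SU over MPTP-Veh and in the midbrain for MPTP-SU+T over MPTP-SU under every alternative run. For MPTP-Veh over Con in the midbrain it went from 0 to 1 (Per2) with DESeq2, and from 0 to 1 (Bmal1) with limma-voom for MPTP-SU over MPTP-Veh. The cause was not tested. With single libraries left out, it was 0 to 1 for both, 0 to 1 (Per1) for MPTP-Veh over Con in the spinal cord and 0 to 1 (Dbp) for MPTP-SU+T over MPTP-SU there. Dbp lost its call in the latter without MPTP-SU replicate 1, 2 or 3 or MPTP-SU+T replicate 3 or 4, with log2 fold changes of 0.55 to 0.59; this comparison chose the members, and nothing is read from the call. The 4 calls among other core clock genes were 6 by the adjusted p alone, 0 with the 8 libraries of the comparison alone and 0 to 4 with single libraries left out. The median log2 fold change of the 8 genes for MPTP-SU+T stayed between 0.25 and 0.35 for spinal cord libraries and between 0.08 and 0.25 for those of the midbrain. The median r between tissues, with group means removed, was 0.129 to 0.196. The replicate number as a block changed no count of called members or of other core clock genes: 0 members for 7 comparisons and 1 for MPTP-SU+T over MPTP-SU in the spinal cord. Same-numbered libraries of compared groups did not deviate together in every pair (r from −0.108 to 0.285), so the numbers were not taken as pairs. Counts of calls over all genes moved more, from 2237 to between 0 and 3543 for MPTP-SU over MPTP-Veh in the midbrain and from 3 to between 0 and 1093 for MPTP-Veh over Con. Ciart and Per2 rested on as few as 60 and 58 counts per library.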
